A study of Homo sapiens with 6 samples.

Results

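Messenger RNA of 10 immediate-early growth response genes was followed in MDA-MB-231 cells, a mesenchymal-like human triple-negative breast cancer line, after knockdown of the kinase CDK16 or treatment with rebastinib (Reb). The genes were EGR1, KLF4, KLF6, KLF10, MYC, ZFP36, BTG2, TRIB1, IER2 and IER3. They were chosen by name, as the rows of both gene tables that carry exactly these symbols, and they are 10 of 41471 symbols in the knockdown table and 10 of 34157 in the Reb table. All 10 had a row in both tables, and 9 passed the filter on low counts (1 count per 1000000 counts of the library, or CPM, on average over the libraries of an experiment) in each experiment. BTG2 did not pass it in either.

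The study asked what CDK16, a cyclin-dependent kinase outside the classical cell cycle group, does in this form of breast cancer. In the first experiment, cells stably carried a scramble shRNA (the control) or one of a pair of CDK16 hairpins, CDK16-sh1 and CDK16-sh2, delivered with a GFP-marked lentiviral vector. In the second, cells received DMSO (the solvent control), 1 μM Reb or 5 μM Reb for 48 h. Reb is a small-molecule kinase inhibitor, known for its action on ABL and TIE2, that the study used against CDK16. Each of the 6 conditions was 1 library, so no value below has a replicate error, and both hairpins share 1 control library, as do both doses. The 95% Clopper-Pearson intervals given in square brackets cover counting error only, and reads are not independent molecules.

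Immediate-early genes are switched on within minutes of a growth factor, serum or stress signal, without new protein synthesis. The ERK cascade and serum response factor (SRF), which binds CArG boxes together with ELK1-type cofactors, drive many of them. Their mRNAs are short-lived, because AU-rich elements in them recruit decay factors such as ZFP36, so their level follows the recent rate of transcription closely. EGR1 is the textbook SRF target and IER2 a compact gene of the same class. Their upstream sequences are shown because these genes had the largest fall and the largest rise among the members. They come from RefSeq on GRCh38.p14, 250 bases that end just before the start site, 5′ to 3′ on the plus strand, at chr5:138465229-138465478 for EGR1 and chr19:13150161-13150410 for IER2. Capitals mark the CArG boxes in EGR1 and the short cAMP response element half-site CGTCA in IER2.
EGR1: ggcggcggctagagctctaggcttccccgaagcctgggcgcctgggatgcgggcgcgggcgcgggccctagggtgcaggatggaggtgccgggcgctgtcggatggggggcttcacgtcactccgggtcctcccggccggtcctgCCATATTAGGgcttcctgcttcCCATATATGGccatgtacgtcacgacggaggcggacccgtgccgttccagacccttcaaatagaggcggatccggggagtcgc
IER2: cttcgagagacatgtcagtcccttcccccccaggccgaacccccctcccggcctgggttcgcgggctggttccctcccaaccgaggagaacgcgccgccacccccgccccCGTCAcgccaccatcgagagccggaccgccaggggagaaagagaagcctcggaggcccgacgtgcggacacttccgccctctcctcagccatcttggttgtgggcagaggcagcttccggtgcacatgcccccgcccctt
EGR1 held 2 CArG boxes, CCATATTAGG at positions -105 to -96 and CCATATATGG at -83 to -74 relative to the start site. Of 27303 promoters of the same length, 312 (1.14%) held such a box on either strand. None of the other 5 members whose promoter was searched (KLF4, KLF6, ZFP36, BTG2 and IER2) did. The promoters of KLF10, MYC, TRIB1 and IER3 were not in the set of sequences used here and were not searched. CGTCA, on either strand, was in 21.7% of promoters and in 4 of the 6 searched members. There were 2 matches each in EGR1 (outside the boxes) and KLF4 and 1 each in BTG2 and IER2. The 8-base palindrome TGACGTCA (1.77% of promoters), which contains CGTCA on both strands, and TATAAA (11.1%) were in none of the 6. The GC box GGGCGG (42.3%) was in every one of the 6 but EGR1, and the EGR site GCGGGGGCG (4.67%) was in KLF6 and BTG2. A match is a run of letters and not a shown site of binding.

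By the coordinates of the deposited tables (GRCh38), EGR1 lies on chromosome 5 at 138465490 to 138469315, KLF4 on chromosome 9 at 107484852 to 107490482 and KLF6 on chromosome 10 at 3775996 to 3785281. ZFP36 is on chromosome 19 at 39406813 to 39409412, IER2 on the same chromosome at 13150415 to 13154908, IER3 on chromosome 6 at 30743199 to 30744554 and BTG2 on chromosome 1 at 203305491 to 203309602. KLF10, TRIB1 and MYC are on chromosome 8. IER2 overlaps the antisense gene AC011446.2, and IER3 overlaps IER3-AS1. The strand setting of the counting was not given in the sources used here, so reads of these pairs may not be fully separated.

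Library totals were 25838443 to 31955119 counts in the knockdown experiment and 37655548 to 50303269 in the Reb experiment. CDK16 itself was at 19.1 RPKM (reads per kilobase of exon and 1000000 counts) with the scramble shRNA, 6.52 with CDK16-sh1 and 4.72 with CDK16-sh2, lower in both, as the labels say. It was at 15.2, 14.3 and 11.4 RPKM with DMSO, 1 μM and 5 μM Reb. RPKM follow library totals, on which the median log2 fold change of all genes at 5 μM was -0.75. The value of CDK16 at 5 μM is therefore not read as a fall. VIM, CD44, AXL and FN1, markers of the mesenchymal state, were present in all 6 libraries, while ESR1 and PGR were at or below 0.0227 RPKM. SPARC, also a mesenchymal marker, was at most 0.112 RPKM in the knockdown libraries and 1.56 to 8.26 in the Reb libraries. The share of counts on mitochondrial genes was 16.2% with CDK16-sh2 and 16.4% with 5 μM Reb, against 7.19 to 11.3% in the other 4 libraries. Of the blood markers, LYZ was at 0.0902 RPKM with DMSO, 1.49 with 1 μM Reb and 0 with 5 μM Reb, and at most 0.103 in the knockdown libraries. The defining PTPRC (0.0847) and CD3E (0.057) were likewise highest with 1 μM Reb, against 0.00475 and 0 with DMSO. The part of other cells in the members' values was not tested.

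On the authors' RPKM, a scale per length, IER3 was the most abundant member in both controls, at 302.5 with the scramble shRNA and 281.4 with DMSO. MYC (36.8 and 32.8) and IER2 (35.1 and 29.2) followed, with RPKM values close to each other in each control. KLF6 was at 12.3 and 11.8, and ZFP36, KLF10, EGR1 and KLF4 lay between 2.77 and 10.9 RPKM in both. TRIB1 was at 1.27 RPKM with the scramble shRNA and 2.75 with DMSO, and BTG2 at 0 and 0.346. The order of neighbours cannot be set against a spread, since there is 1 library per condition. With all 6 libraries scaled together on the log2 CPM scale, the level with DMSO differed from that with the scramble shRNA by 1.21 for TRIB1, 0.75 for EGR1, -0.53 for ZFP36 and -1.06 for KLF4, where the median of 15752 genes differed by -0.0033. The remaining members except BTG2 lay between -0.34 (KLF10) and 0.04 (KLF6). The experiments were normalized separately by the authors, so a level in one was not compared with a treated library of the other.

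**Figure D1:**
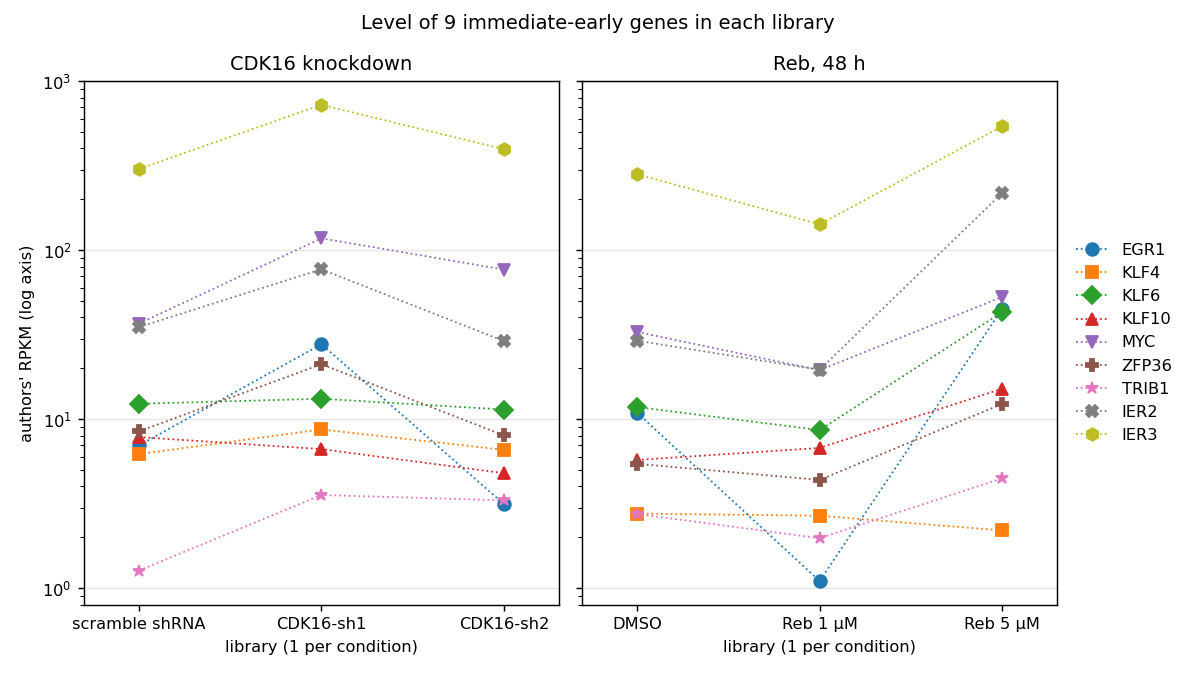
Level of the 9 members that passed the filter, as the authors' RPKM on a log axis, in each of the 3 knockdown libraries and the 3 Reb libraries, with 1 point per library and dotted lines joining the same gene. EGR1 moves over the widest range, from 1.10 RPKM with 1 μM Reb to 44.8 with 5 μM Reb, and IER3 stays the highest in all 6 libraries.

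With CDK16-sh1, 6 of the 9 measured members (EGR1, MYC, TRIB1, ZFP36, IER3 and IER2) were at least 2-fold higher than with the scramble shRNA, beside 4.33% of all 15295 genes tested, and none was 2-fold lower (6.86% of all genes). The median log2 fold change of the members was 1.29, and that of all genes -0.0018. With CDK16-sh2, only MYC and TRIB1 passed 2-fold upward (2.2% of all genes did) and none passed it downward (7.62%), with a member median of 0.12 beside 0.02 over all genes. In bulk RNA, more transcript per cell and more cells that express the gene cannot be told apart.

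Among the transcription factors, EGR1, a zinc finger activator of growth and repair genes, had 567 counts with the scramble shRNA, 2786 with CDK16-sh1 and 272 with CDK16-sh2. The hairpins thus lay on opposite sides of their control. The log2 fold change was 2.02 [1.89, 2.15] with CDK16-sh1, rank 34 of 15295 from the highest, and -0.95 [-1.17, -0.74] with CDK16-sh2. Set directly against each other, CDK16-sh2 was lower than CDK16-sh1 by a log2 difference of -2.97 [-3.16, -2.79]. EGR1 was the only member whose intervals lay on opposite sides of 0 for the hairpins, with CDK16-sh1 above and CDK16-sh2 below, as for 7.27% of all genes.

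MYC, the bHLH factor that drives ribosome production and cell growth, had 2853 counts with the scramble shRNA, 11280 with CDK16-sh1 and 6340 with CDK16-sh2, higher in both. Its log2 fold changes were 1.71 [1.65, 1.77] and 1.26 [1.195, 1.323], ranks 73 and 119 from the highest. KLF4, a factor of epithelial identity and reprogramming, had 588, 1017 and 663 counts in the same order, with log2 fold changes of 0.51 [0.37, 0.66] and 0.28. KLF6, a factor of the same family linked to growth arrest, stayed near its control, with 1957, 2593 and 1926 counts and log2 fold changes of 0.13 and 0.08 [-0.01, 0.18]. KLF10, the TGF-β-inducible early gene, had 811, 851 and 528 counts and log2 fold changes of -0.21 and -0.51 [-0.67, -0.35]. It was the only member below the control in both hairpin libraries beyond counting error (18.8% of all genes were), and neither value passed 2-fold.

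Of the factors that control mRNA decay, ZFP36, which binds AU-rich elements and recruits deadenylases, had 440 counts with the scramble shRNA, 1359 with CDK16-sh1 and 443 with CDK16-sh2. Its log2 fold change was 1.35 [1.19, 1.51] with CDK16-sh1 and 0.12 [-0.08, 0.31] with CDK16-sh2, so the rise was past 2-fold with CDK16-sh1 alone. The hairpins differed by -1.23 on the log2 scale. BTG2, an antiproliferative cofactor of the CCR4-NOT deadenylase, had 0, 0 and 2 counts. These are below 3 counts, the limit that a count of 0 allows, and no fold is given.

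TRIB1, a pseudokinase that brings the COP1 ubiquitin ligase to its targets, had 136 counts with the scramble shRNA, 471 with CDK16-sh1 and 377 with CDK16-sh2. Its log2 fold changes were 1.502 [1.24, 1.80] and 1.56 [1.29, 1.87], and the direct difference between the hairpins was 0.06 [-0.14, 0.26], an interval that holds 0. TRIB1 and MYC were thus past 2-fold in both hairpin libraries, which share a control. The share of all genes past 2-fold upward in both was not counted. It cannot exceed the 2.2% that were so with CDK16-sh2. IER2, a nuclear protein of uncertain biochemical function, had 2785, 7569 and 2450 counts, with log2 fold changes of 1.17 [1.10, 1.23] and -0.08 [-0.16, 0.00]. IER3, a stress-inducible regulator of survival, had 10599, 31391 and 14765 counts, with log2 fold changes of 1.29 [1.26, 1.32] and 0.59 [0.55, 0.62], above the control in both.

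Across all genes, log2 fold changes with CDK16-sh1 were higher at higher GC content (Pearson's r = 0.443 across 15209 genes, which are not independent replicates), with a median of -0.41 in the 20% of genes with the lowest GC content and 0.42 in the 20% with the highest. Pearson's r was 0.119 with CDK16-sh2. In the Reb experiment the trend ran the other way, with r = -0.298 at 1 μM and -0.199 at 5 μM across 15560 genes. The members had a median GC content of 54.4%, against 48.5% over all genes. With the GC and length trends removed, EGR1 (1.75), MYC (1.49) and TRIB1 (1.39) kept a log2 fold change past 2-fold with CDK16-sh1, and ZFP36 (0.96), IER3 (0.91) and IER2 (0.69) did not.

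Taking both hairpins as 1 group against the scramble shRNA, edgeR's quasi-likelihood test called 0 of the 9 members and 0 of 15295 genes (0%), with a smallest Benjamini-Hochberg adjusted p of 0.195 over all genes. Here the difference between the hairpins counts as the spread, which the test in part shares across genes. A gene's p is thus not a measure of its own hairpins alone. The joint value of EGR1 below spans log2 fold changes of 2.02 and -0.95, on opposite sides of the control. DESeq2's Wald test did not put EGR1 under an unadjusted 0.05. At an unadjusted p under 0.05 there were 382 genes, among them 3 members. These were MYC (log2 fold change over both hairpins 1.5), TRIB1 (1.55) and EGR1 (1.19), each with an adjusted p of 1 in edgeR. DESeq2's Wald test likewise called 0 genes, with 233 genes and 2 members at an unadjusted p under 0.05.

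**Figure D2:**
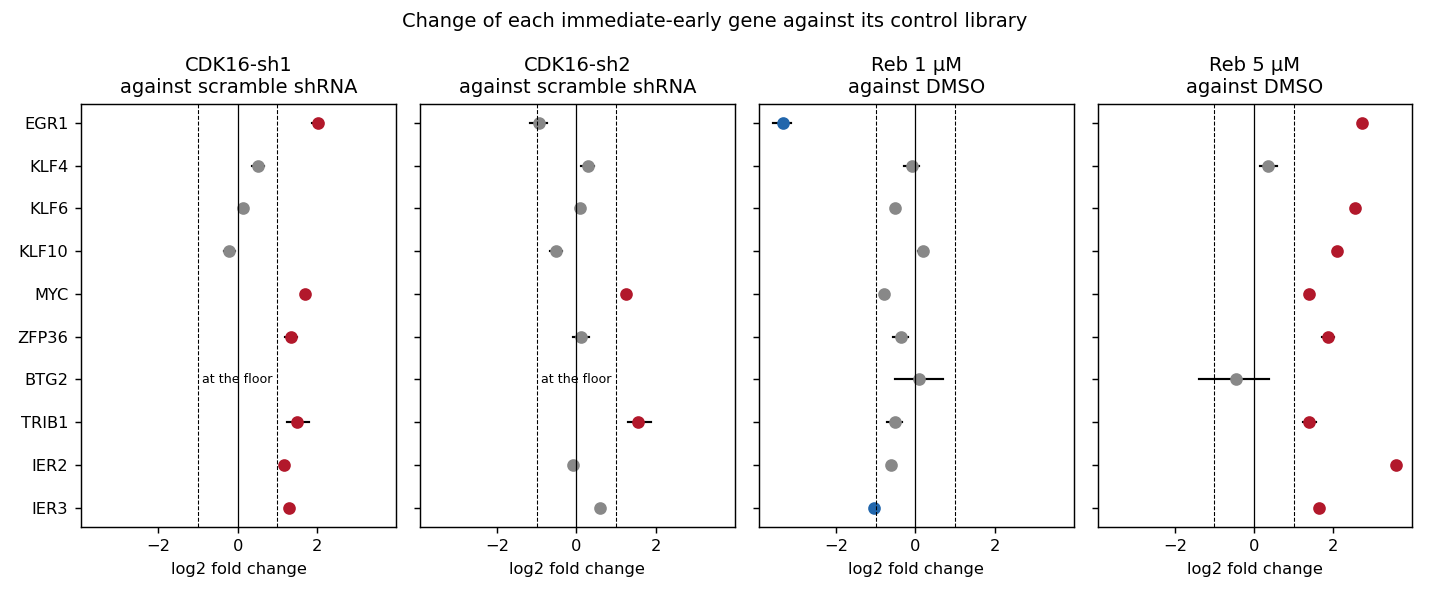
Log2 fold change of each of the 10 members against its own control, in 4 panels for CDK16-sh1, CDK16-sh2, 1 μM Reb and 5 μM Reb, with bars for the 95% counting interval and dashed lines at 2-fold. Red points are at least 2-fold higher, blue points at least 2-fold lower and grey points neither, and BTG2 in the knockdown experiment is at the floor of the counts.

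At 1 μM Reb, EGR1 and IER3 fell 2-fold or more below DMSO, beside 1.92% of 15655 genes tested, and no member was 2-fold higher (1.28% of all genes). Of the 10 members, 8 had a log2 fold change below 0, with a median of -0.51 beside 0.0016 over all genes. With 5 μM Reb the picture turned: 8 members (IER2, EGR1, KLF6, KLF10, ZFP36, IER3, TRIB1 and MYC) were at least 2-fold higher, beside 23.6% of all genes, and none was 2-fold lower (27.2%). The median over the members was 1.75, beside -0.07 over all genes. Scaled by library totals in place of TMM, the median of all genes at 5 μM became -0.75, with 11.7% of genes 2-fold higher and 43.4% 2-fold lower, and 5 members (IER2, EGR1, KLF6, KLF10 and ZFP36) stayed 2-fold higher. Under the same change of scaling, CDK16-sh2 had 0.994% of genes higher and 11.1% lower.

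EGR1 had 1722 counts with DMSO, 171 with 1 μM Reb and 5290 with 5 μM Reb, low at one dose and high at the other. It was 10.1-fold lower at 1 μM (log2 fold change -3.34 [-3.59, -3.13]), rank 16 of 15655 from the lowest. At 5 μM it was 6.62-fold higher than DMSO (2.73 [2.65, 2.81]), and the log2 difference between the doses was 6.08 [5.86, 6.31]. Of the members, EGR1 had both the largest fall at 1 μM and the largest difference between the doses.

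The remaining factors fell into different patterns. MYC had 4956 counts with DMSO, 2890 with 1 μM and 5973 with 5 μM Reb, with log2 fold changes of -0.80 [-0.87, -0.74] and 1.38 [1.32, 1.43]. KLF6 had 3644, 2614 and 9927 counts and log2 fold changes of -0.50 and 2.55 [2.50, 2.61], in contrast to its near-control level in the knockdown. KLF10 had 1156, 1336 and 2282 counts and log2 fold changes of 0.18 [0.07, 0.30] and 2.09 [1.99, 2.19]. KLF10 was the only member above DMSO at both doses beyond counting error (17.5% of all genes were). KLF4 had 509, 485 and 303 counts and stayed within 2-fold, with log2 fold changes of -0.09 [-0.28, 0.09] and 0.36 [0.15, 0.57], and the sign of the value at 5 μM turned with library totals (-0.33).

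ZFP36 had 551 counts with DMSO, 434 with 1 μM and 932 with 5 μM Reb, with log2 fold changes of -0.37 [-0.55, -0.18] and 1.86 [1.71, 2.02]. It was below DMSO at the lower dose and above it at the higher dose. BTG2 was weak, with 48, 52 and 16 counts, and its intervals of 0.09 [-0.50, 0.69] and -0.45 [-1.39, 0.37] both held 0. At this depth and with TMM scaling, no difference in BTG2 lay beyond counting error, while library totals gave -1.09 at 5 μM.

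TRIB1 had 572 counts with DMSO, 404 with 1 μM and 696 with 5 μM Reb, with log2 fold changes of -0.52 [-0.71, -0.34] and 1.39 [1.23, 1.55]. IER2 rose the most of the members at 5 μM, from 4504 counts with DMSO to 25152, after 2972 at 1 μM. Its log2 fold change was -0.62 [-0.69, -0.56] at 1 μM and 3.59 [3.54, 3.64], or 12.03-fold, at 5 μM, rank 222 of 15655 from the highest. In RPKM, a scale per length, IER2 went from 29.2 with DMSO to 217.4 with 5 μM Reb and was then the most abundant member after IER3 (540.5). IER3 had 19192, 9519 and 27596 counts, with log2 fold changes of -1.035 [-1.071, -0.9996] and 1.63 [1.61, 1.66]. The value at 1 μM lay at the 2-fold threshold. In all, 7 members lay beyond counting error below DMSO at 1 μM and above it at 5 μM, as 9.81% of all 15655 genes did, and none lay below it at both doses (20.3% of all genes).

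The direct difference of 5 μM from 1 μM Reb on the log2 scale was 4.21 for IER2, 3.06 for KLF6, 2.67 for IER3, 2.23 for ZFP36, 2.18 for MYC, 1.92 for TRIB1 and 1.90 for KLF10. KLF4 differed by 0.45, and BTG2 by -0.57 [-1.48, 0.26]. The 5 μM library also differed from DMSO in the share of counts on its 100 most abundant genes (35.3% against 24.3%) and in heat shock genes. HSPA1B was at 193.9 RPKM with DMSO and 406.9 with 5 μM Reb, and HSPA1A at 62.5 and 110.6, while DNAJB1 was lower, at 55.8 and 26.4. Their part in the members' values was not tested.

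When the doses were joined and set against DMSO, edgeR's quasi-likelihood test called 12 of 15655 genes (0.0767%), 11 higher and 1 lower, and 0 members, with no member at an unadjusted p under 0.05 among 228 such genes. The member with the lowest p was IER2 (log2 fold change over both doses 2.67, adjusted p = 1 in edgeR). DESeq2's Wald test called 17 genes and 0 members, with 1 member, IER2, under an unadjusted 0.05. With dose as a linear term, which leaves 1 residual degree of freedom, edgeR called 3832 genes (24.5%), and 7 members were among them. The adjusted p was 4.59e-05 for IER2, 0.000943 for KLF6, 0.00219 for EGR1, 0.00347 for KLF10, 0.0097 for ZFP36, 0.0324 for IER3 and 0.047 for MYC. TRIB1 (0.0521) and KLF4 (0.683) were not called. Of the called members, only KLF10 was above DMSO at both doses. IER2, KLF6, EGR1, ZFP36, IER3 and MYC were below DMSO at 1 μM and above it at 5 μM, a course that a line in dose does not describe. A small adjusted p here is therefore not read as a graded response to dose.

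**Figure D3:**
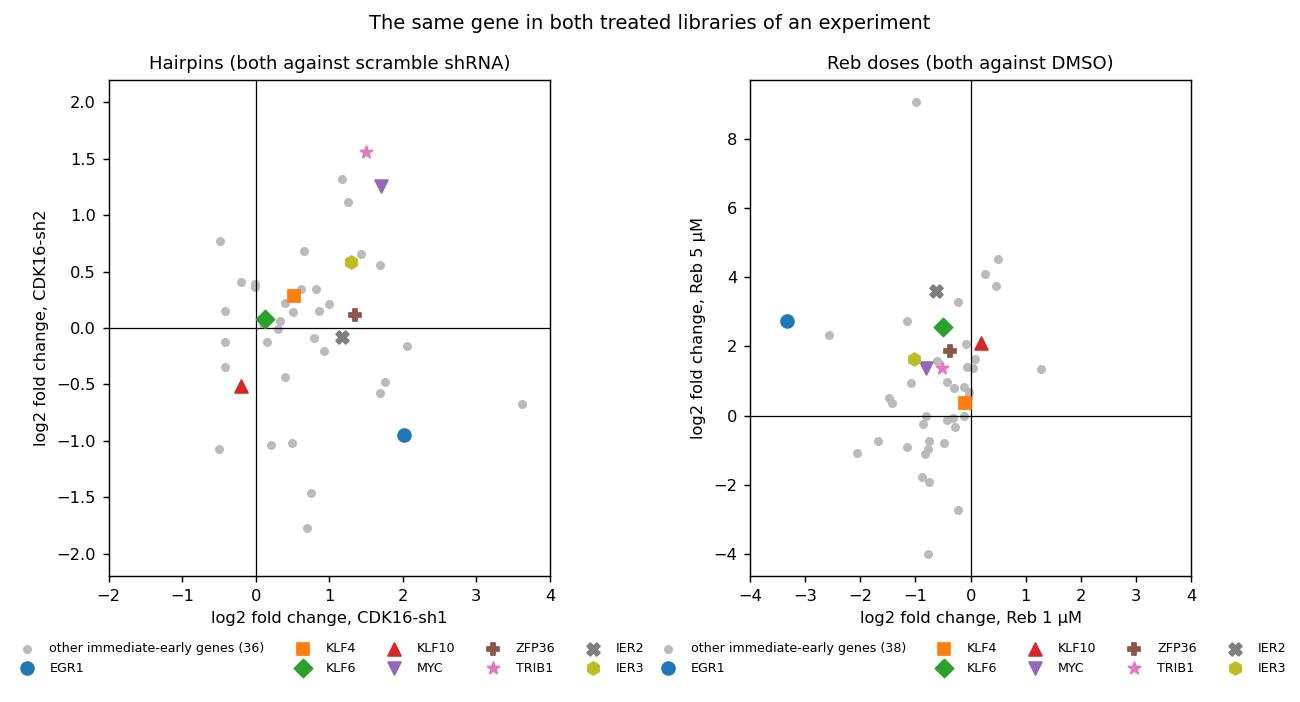
Log2 fold changes of the 9 measured members (coloured) and of the other immediate-early genes (grey, 36 in the knockdown and 38 in the Reb experiment), CDK16-sh2 against CDK16-sh1 on the left and 5 μM against 1 μM Reb on the right. The axes share a control library, so points may lie along the diagonal for that reason alone. EGR1 is at the lower right in the hairpin panel and at the upper left in the dose panel.

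The other immediate-early genes, AP-1 factors, phosphatases and signal-induced genes taken as a list, were described beside the members. Of 36 measured with CDK16-sh1, 9 rose at least 2-fold and none fell, with a median log2 fold change of 0.57. Of those that averaged 5 CPM or more, the genes that rose furthest were FOSB (3.62) and JUNB (2.06), AP-1 subunits, and ATF3 (1.76), a stress-induced bZIP factor. FOSB (39 counts with the scramble shRNA, 605 with CDK16-sh1) and ATF3 (85 and 354) reached that average only through CDK16-sh1. Their place among the largest rises thus partly follows from the filter. The lowest values, DUSP6 (-0.50), PLAUR (-0.48) and ID1 (-0.42), were within 2-fold. With CDK16-sh2, 2 rose and 5 fell, with a median of 0.10 that turned to -0.09 with library totals. FOSL1, an AP-1 subunit (1.17 and 1.32 for the hairpins), and PPP1R15A, the stress-induced phosphatase subunit GADD34 (1.25 and 1.11), were past 2-fold in both. Unlike MYC and TRIB1, they did not stay so with GC and length trends removed (0.72 and 0.86 with CDK16-sh1), and PPP1R15A was at 0.92 with CDK16-sh2 under library totals. The 5 that fell were HES1 (-1.46), the ERK phosphatase DUSP6 (-1.08), CTGF (-1.04) and the weakly expressed FOS (-1.78, from 82 to 21 counts) and NR4A2 (-1.02), and PLAUR (0.77) had the highest value after FOSL1 and PPP1R15A. FOSB (-0.68, from 39 to 22 counts), JUNB (-0.16, from 721 to 600) and ATF3 (-0.48, from 85 to 56) were on the other side of the control with CDK16-sh2. EGR1 was too, but unlike EGR1 these have no counting interval here, and the counts of FOSB and ATF3 are low.

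With 1 μM Reb, 8 of 38 other immediate-early genes fell and 1 rose, with a median of -0.46. Among those that averaged 5 CPM or more, the largest falls were those of FOS (-2.56), the partner of JUN in AP-1, DUSP1 (-2.06), a MAP kinase phosphatase, and TNFAIP3 (-1.42), a brake on NF-κB. ID1, an inhibitor of bHLH factors, rose (1.27), and the values of GADD45B (0.49) and ATF3 (0.25) came next at that level of expression. Of the genes under it, PTGS2 (-1.68) and NR4A2 (-1.48) fell further than TNFAIP3, and EGR2 was at 0.46. With 5 μM Reb, 13 rose and 6 fell, with a median of 0.54 that turned to -0.15 with library totals (8 rose and 12 fell). ARC, a synaptic immediate-early gene, rose from 18 to 5018 counts (9.05), followed by GADD45B (4.54) and ATF3 (4.08). With 8 counts at 1 μM, ARC passed the filter on low counts only through the 5 μM library. LIF (-2.73) and CYR61 (-1.92) were among those that fell. FOS was 2.34 above DMSO at 5 μM, so that, like EGR1, it was past 2-fold below DMSO at 1 μM and past 2-fold above it at 5 μM. DUSP1 was past 2-fold lower at both doses (-1.09 at 5 μM), and ID1 past 2-fold higher at both (1.34 at 5 μM, or 0.65 with library totals).

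Further lists, one around each member, are given by their counts, to be read beside the shares of all genes above. Of 12 serum response and ERK-linked factors, 1 fell with CDK16-sh1 and 2 fell with CDK16-sh2. MKL2, an SRF coactivator, was among them with both hairpins (-1.201 and -1.19, but -0.77 and -0.84 with GC and length trends removed), and ELK4, an SRF cofactor, fell with CDK16-sh2 (-1.38). None moved 2-fold at 1 μM Reb, and at 5 μM 2 rose, among them ELK4 (1.66), and 3 fell (ELK1, -1.94, RPS6KA1, -1.44, and RPS6KA3, -1.15), counts that became 0 and 5 with library totals. In the EGR family and its co-repressors, 2 genes were measured in the knockdown and 3 in the Reb experiment. They passed 2-fold at 5 μM Reb alone, where EGR2, a close relative of EGR1, rose from 18 to 125 counts (3.74) and NAB2, a co-repressor of EGR1, fell (-1.38).

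The other KLF genes had no 2-fold change among 12 with CDK16-sh1 and, with CDK16-sh2, 1 rise (KLF17, 1.25) and 1 fall (KLF11, -1.23). Of the 10 measured in the Reb experiment, none passed 2-fold at 1 μM. At 5 μM KLF16 (1.73), KLF11 (1.67), KLF5 (1.57) and KLF13 (1.30) rose and KLF2 (-2.22), KLF15 (-1.31) and KLF12 (-1.02) fell, with 1 rise and 3 falls under library totals.

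Of 9 partners and antagonists of MYC, none passed 2-fold with either hairpin (medians of 0.40 and 0.39) or at 1 μM Reb (-0.18). At 5 μM 5 rose, among them ZBTB17, the MIZ1 partner of MYC (2.85), and MAX, its dimer partner (1.76), and MLX fell (-1.24), a split that became 2 and 2 with library totals. Of 20 MYC target genes, CCND2 rose with CDK16-sh1 (1.57) and ODC1 with CDK16-sh2 (1.16, or 0.96 with library totals), and none fell, with medians of 0.23 and 0.46. At 1 μM Reb none of 19 passed 2-fold (median -0.05). At 5 μM 6 rose and 4 fell (0.29, and -0.40 with library totals), with NOP56, a ribosome assembly factor, at 2.29 and CAD, of pyrimidine synthesis, at -3.10. Among 6 measured TRIB1 relatives and partners, none passed 2-fold except MAP2K1 (1.16) and MAP2K7 (-1.28) at 5 μM, where library totals gave no rise and 2 falls.

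The mRNA decay machinery around ZFP36, 15 genes, had 1 fall with CDK16-sh1 (CNOT6, a deadenylase subunit, -1.15, or -0.66 with GC and length trends removed) and none with CDK16-sh2 (3 with library totals) or at 1 μM Reb. At 5 μM 6 rose and 2 fell (median 0.37, and -0.32 with library totals), with MAPKAPK2, the kinase that phosphorylates ZFP36, at 2.04 and CNOT3 at -2.05. The AU-rich mRNAs that ZFP36 is known to bind, a list that also holds IER3 and FOS, were described in the same way. Of 12 measured, 5 rose with CDK16-sh1 (median 0.77), namely IL6 (2.91), CSF2 (2.65), CXCL2 (1.64), CSF3 (1.39) and IER3 (1.29). With GC and length trends removed 3 rose, without CSF3 (0.92) and IER3. With CDK16-sh2, CSF3, a granulocyte growth factor (2.27), and IL1B (1.11) rose and FOS fell, with a median of 0.46, and library totals gave 1 rise (IL1B 0.91) and 2 falls.

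At 1 μM Reb 10 of those 12 mRNAs fell, with a median of -3.40, and at 5 μM 7 fell and 2 (IER3 and FOS) rose, with a median of -1.98. The cytokine mRNAs IL6 (-4.23 and -1.23), CXCL8 (-4.96 and -3.74), CXCL1 (-4.91 and -5.44), IL1B (-3.69 and -4.62), CSF2 (-3.10 and -4.20) and CSF3 (-4.57 and -4.53) were past 2-fold lower at both doses. At 5 μM these mRNAs, named because they were lower at both doses, stood on the other side of DMSO from ZFP36 itself and from IER3. CXCL2, of the same list, was lower at 1 μM (-4.17) but was not past 2-fold lower at both doses.

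Of 4 BTG and TOB relatives of BTG2, none passed 2-fold except TOB1 (1.47, and 0.78 with library totals) and TOB2 (-1.56) at 5 μM Reb. The 3 genes listed beside IER2 and IER3 by symbol alone (IER5, IER5L and IER3IP1) did not pass 2-fold in the knockdown or at 1 μM. IER5L (1.66) and IER3IP1 (1.002) did at 5 μM, neither of them with library totals. Mesenchymal markers did not pass 2-fold in the knockdown or at 1 μM Reb, and at 5 μM CD44 was higher (1.06) and SPARC lower (-1.65). Among 5 epithelial and hormone receptor markers EPCAM was higher at 5 μM (1.86) and none passed 2-fold elsewhere. Of the blood and endothelial markers, PECAM1 (-1.52 and -3.82 for the doses) and CDH5 (-2.26 and -2.25) passed the filter in the Reb experiment and were lower at both doses, from 0.395 and 0.406 RPKM with DMSO. LYZ, PTPRC and CD3E, higher with 1 μM Reb in RPKM as given above, did not pass it. PECAM1 alone of this list passed it in the knockdown, and it was lower with CDK16-sh2 (-1.53). Of 6 RNA quality and stress genes, HSPA1B, HSPA1A and MALAT1 were 2-fold higher at 5 μM and NEAT1 (1.03, or 0.83 with library totals) with CDK16-sh2.

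Likeness to the members' median profile was measured as the Euclidean distance over the 4 log2 fold changes, across the 10554 genes that averaged 5 CPM or more in each experiment. The profile was 1.29, 0.12, -0.52 and 1.86 for CDK16-sh1, CDK16-sh2, 1 μM and 5 μM Reb. ZFP36 was nearest to it of the members, at 0.17, and EGR1 farthest, at 3.21. The profile is the members' own median, and its values for CDK16-sh2 and 5 μM Reb are those of ZFP36, so this nearness is built in. By distance among these genes, IER3 ranked 35, MYC 626 and KLF6 659. The remaining members ranked from 1136 (TRIB1) to 7440 (EGR1), so many other genes lay nearer to the profile than most members did. The nearest other genes were SAT2 (0.39), NOTCH2NL (0.41) and ZNF580 (0.44). NOTCH2NL shares reads with near-identical copies, so its counts are uncertain.

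**Figure D4:**
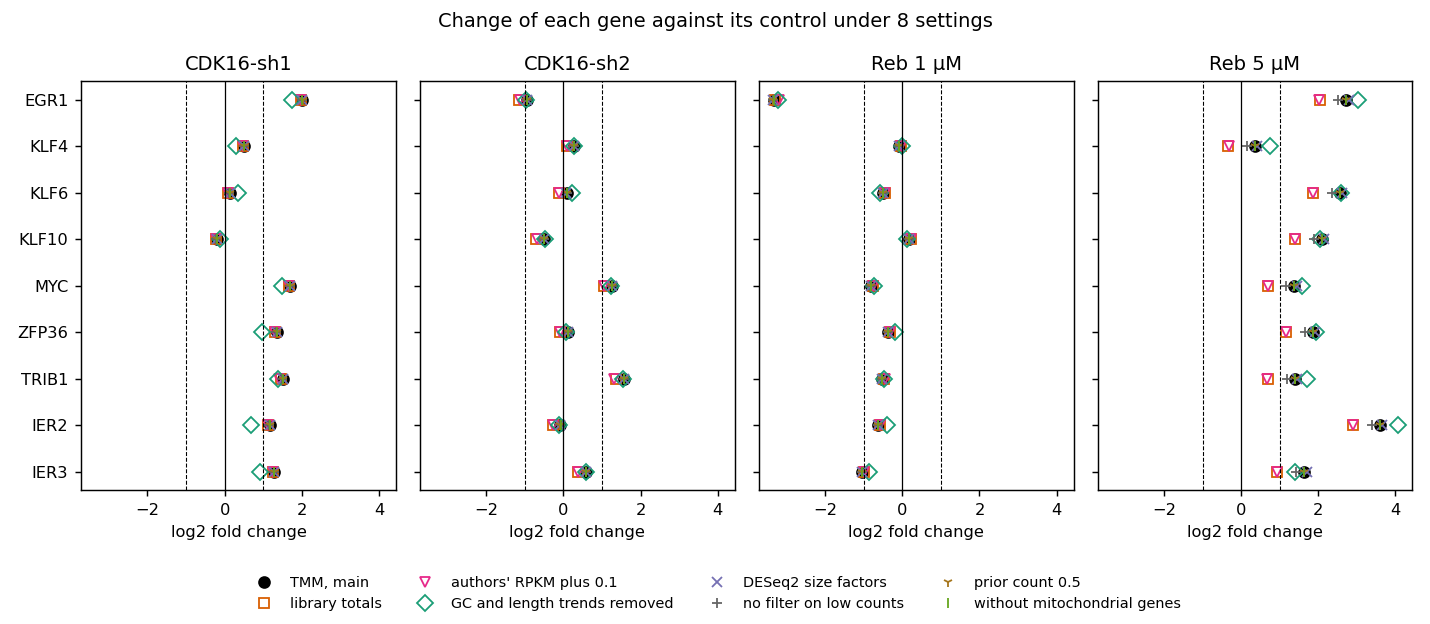
Log2 fold change of the 9 measured members in 4 panels (one per treated library against its control) under the main setting and 7 alternatives, with dashed lines at 2-fold. The settings lie close together at 1 μM Reb, GC and length removal lowers the values of ZFP36, IER2 and IER3 with CDK16-sh1, and library totals and RPKM lie below TMM for every gene at 5 μM Reb.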

How the data were processed

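RNA of 6 MDA-MB-231 libraries was sequenced by the authors as stranded mRNA on a HiSeq X 10. The submitters' processing notes name Trimmomatic, featureCounts, Subread 1.5.1 and GRCh38. The aligner and the annotation are not given in the sources used here. The deposited counts are whole reads per gene symbol without normalization, and the deposited RPKM are the authors' counts per kilobase of exon and 1000000 counts. The depth is given in the text, and intervals cover counting error only.

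Groups followed the GEO labels. Fold changes of treated over control libraries were taken on the log2 scale from TMM-scaled CPM (edgeR 4.0.16 in R 4.3.3, prior count 2), and genes averaging under 1 CPM in an experiment were left out. Called means at least 2-fold or, in the joint test of both treated libraries (edgeR quasi-likelihood, checked on simulated data), also an adjusted p of at most 0.05. Alternatives were DESeq2 1.42.0 (size factors and Wald test), library totals, RPKM plus 0.1, no filter and a prior count of 0.5. Further ones were removal of GC and length trends, removal of mitochondrial genes, and log2 of the dose plus 1 as a linear term. The libraries are single, so p-values rest only on the spread between hairpins or doses or, with the dose term, the departure from its line. Both edgeR and DESeq2 share this spread in part across genes, so a gene's p does not measure its own libraries alone.

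The members and lists were chosen with earlier results of these data known. All members were named. From the lists, genes past 2-fold the same way in both treated libraries were named, with the 3 largest rises and falls per library among other immediate-early genes and the 3 genes nearest the members' profile. Further genes named from the lists (where 5 or fewer passed 2-fold, or as examples) and the heat shock genes were chosen after their values were seen. Some genes that the rule names are not reported here. Positions are those of the tables, and promoters are RefSeq's. GC content came from GENCODE 29 transcripts and was known for 99.4% of genes.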

Additional observations from a re-analysis of the deposited data

Results flagged for a closer look

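KLF10 lay on different sides of the control in the knockdown and the Reb experiments. Its log2 fold change was -0.21 with CDK16-sh1 and -0.51 with CDK16-sh2, and 0.18 with 1 μM and 2.09 with 5 μM Reb, so both hairpin libraries were below their control and both Reb libraries above theirs. The difference between the experiments was not tested.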

How the results depend on the processing

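The counts and medians of the members that changed with an alternative follow. With GC and length trends removed, 3 members were 2-fold higher with CDK16-sh1 (median 0.91). With CDK16-sh2, the median turned to -0.0797 under library totals and -0.0791 under RPKM, each with 1 member, EGR1, 2-fold lower. With 1 μM Reb, 1 member, EGR1, was 2-fold lower under library totals, RPKM and GC and length removal, since IER3 lay at the threshold. With 5 μM Reb, 5 members were 2-fold higher under library totals (median 1.06) and under RPKM (1.05). BTG2 alone was 2-fold lower under library totals (-1.09), from 16 counts. Without the filter the median was 1.54. With log2 of the dose plus 1 as a linear term 7 members were called. The scaling itself moved these values, and otherwise the cause was not tested.

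Of 38 single values, 17 moved past their counting interval under RPKM, 17 under library totals, 16 with GC and length removal, 8 without the filter, 4 with DESeq2 size factors and 0 with a prior count of 0.5 or without mitochondrial genes. Values within 2-fold that changed sign were those of KLF4 at 5 μM (-0.33 under library totals) and 1 μM (0.0049 with GC and length removal), and of KLF6 (-0.11) and ZFP36 (-0.08) with CDK16-sh2 under library totals. Of the genes of the other lists past 2-fold, library totals ended 0 of 16 calls with CDK16-sh1, 4 of 16 with CDK16-sh2, 0 of 18 at 1 μM and 27 of 76 at 5 μM Reb, and GC and length removal ended 6, 1, 2 and 12. No paired analysis was possible because each condition had 1 library. For the same reason no library could be left out, and differences between hairpins or between doses have no replicate check.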
